A study of Mus musculus with 4 samples.

Results

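Genes that write, erase and read DNA methylation were followed in RNA-seq of WT and *Phf2* KO MEFs. The 9 genes were taken from the count table by their symbols, all 9 were found among the 24391 listed, and all 9 passed the filter on low counts that left 13668 genes. *Dnmt1* and *Uhrf1* belong to maintenance methylation, *Dnmt3a* and *Dnmt3b* to de novo methylation, *Tet1*, *Tet2* and *Tet3* to oxidation of the mark, and *Mbd1* and *Mbd2* to its reading.

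The cells were primary MEFs from E13.5 mouse embryos, homozygous for floxed *Phf2* and carrying ERCre on a single allele, a CreERT2 recombinase made from the Rosa26 locus, and they were studied in quiescence. There were 2 WT libraries, which received no tamoxifen according to their labels, and 2 *Phf2* KO libraries, labelled Tamoxifen, for which the protocol gives 0.5 µM 4-OHT for 7 days in low serum, in a text that stands alike beside every library. No library separates 4-OHT from recombination, so the loss of *Phf2*, the activity of Cre and 4-OHT cannot be told apart. The labels number the libraries of each group as replicates 1 and 2 and do not say whether the cells came from separate embryos, so p-values measure only the spread between these libraries.

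DNA methylation is copied after replication by Dnmt1, which Uhrf1 brings to half-methylated CpG sites at the fork, and it is laid down at new sites by Dnmt3a and Dnmt3b. Tet enzymes oxidise the methyl group, after which it is lost by dilution or by base excision repair, and Mbd proteins bind methylated CpG and recruit corepressors. In cycling cells Dnmt1 and Uhrf1 are known as targets of E2F, the factor that turns on genes for S phase, whereas Tet2, Tet3 and Dnmt3a are also made in resting cells.

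*Phf2* itself, which encodes the demethylase-related chromatin reader that was deleted, had normalized CPM values (counts scaled to library size) of 135 and 142 in WT, against 70.2 and 89.8 in *Phf2* KO. The libraries labelled *Phf2* KO therefore held 57.9% of the WT level, a log2 fold change of -0.79 ± 0.14 (SE, 2 against 2 libraries). The unadjusted p of edgeR's quasi-likelihood test was 0.00332 and the adjusted p over all genes was 0.999. The counts are per gene, so reads from inside and outside the floxed part cannot be told apart.

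The libraries held between 21094743 and 26094268 counts, and a count of 3 corresponds to between 0.116 and 0.145 CPM. Fibroblast markers such as *Col1a1* and *Vim* summed to 85830 and 88938 CPM in WT, against 77462 and 74841 CPM in *Phf2* KO. Of 10 endothelial markers, *Tie1* and *Cldn5* had 0 counts in every library and *Kdr* had the most, with 441 and 232 in WT, against 258 and 135 in *Phf2* KO, and the list summed to between 13.1 and 24.9 CPM. Of 10 germ and pluripotent cell markers, *Pou5f1*, *Zfp42* and *Dppa5a* had 0 counts in every library, and the highest count was 34, of *Prdm1*. Of 20 macrophage markers 19 were listed, and they summed to 4702 CPM (WT) and 5202 CPM (*Phf2* KO) in replicate 1, against 1007 and 1564 CPM in replicate 2. *Xist* had 10042 counts in WT replicate 1 and 8336 in *Phf2* KO replicate 1, against 3 and 12 in the respective libraries of replicate 2. The Y-linked *Ddx3y* had 6 and 10 counts in the libraries of replicate 1, against 1271 and 1295 in those of replicate 2. Replicate numbers thus differed in sex and in macrophage RNA within both groups, and values are given for each number below. In such bulk samples, fewer cells of a type and less RNA per cell cannot be told apart.

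The positions of the genes on NCBIM37 (mm9), from the GENCODE annotation of that build, were as follows. *Dnmt1* lies on the minus strand at chr9:20711650-20757317 and *Uhrf1* on the plus strand at chr17:56442744-56462909. *Dnmt3a* lies on the plus strand at chr12:3806007-3914443 and *Dnmt3b* on the plus strand at chr2:153475186-153513466. *Tet1* at chr10:62267318-62361866, *Tet2* at chr3:133126643-133207354 and *Tet3* at chr6:83312367-83391672 are on the minus strand. *Mbd1* at chr18:74427926-74442339 and *Mbd2* at chr18:70727843-70785785 are on the plus strand. The counts used the strand of the reads, and only *Tet1* shares its strand with another annotated gene, a U6 small nuclear RNA.

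Reads of 50 bases can be placed in most of these genes without doubt. Of all 50-base windows within the exons, 100% occurred once in the genome for *Dnmt1*, *Mbd1* and *Mbd2*, and between 99.2% and 99.9% for *Dnmt3a*, *Tet1*, *Tet2* and *Tet3*. The share was 91.5% for *Dnmt3b* and 76.9% for *Uhrf1*, whose 779 repeated windows of 3377 are the largest share of the 9. *Tdg*, the glycosylase that removes oxidised methylcytosine, had 50.8% of its windows once and was listed with 1 and 1 counts in WT, against 0 and 0 in *Phf2* KO. Its level was therefore not read.

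RefSeq promoter windows (GRCm38.p6, 250 bases before to 50 bases after each start) were held for 7 of the 9 genes, with 12 windows in all. They were searched on both strands for 4 E2F-type octamers, TTTGGCGC, TTTCCCGC, TTTCGCGC and TTTGCCGC, which can overlap each other on opposite strands. *Dnmt1* and *Uhrf1* held a match, and the other 5 genes with a window, *Dnmt3a*, *Dnmt3b*, *Tet1*, *Tet2* and *Tet3*, held none. Of all 27025 genes with a window, 704 (2.61%) held a match, and of 32851 windows 744 (2.26%). Of 20 S-phase and mitosis genes, 16 had a window and 6 of these held a match. The 30 bases around matches are shown, with the octamer in capitals and coordinates on GRCm38.p6. They are shown because the levels of *Dnmt1* and *Uhrf1* are compared with those of S-phase genes further on. *Mcm6*, *Cdk1* and *Cdc6* are examples of the 6 S-phase and mitosis genes with a match. Only the match nearest the start is shown for *Mcm6*.

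Dnmt1, the third listed start, match 219 bases before it, minus strand, chr9:20952824-20952853: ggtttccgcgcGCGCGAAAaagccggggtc
Dnmt1, the third listed start, match 33 bases after it, minus strand, chr9:20952574-20952603: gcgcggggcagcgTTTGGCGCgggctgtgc
Uhrf1, the second listed start, match 185 bases before it, plus strand, chr17:56304117-56304146: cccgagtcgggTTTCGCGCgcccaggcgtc
Mcm6, match 47 bases before the start, minus strand, chr1:128359734-128359763: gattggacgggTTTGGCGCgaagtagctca
Cdk1, match 131 bases before the start, minus strand, chr10:69353025-69353054: tttccgctcccTTTCGCGCtctgcgctccc
Cdc6, match 138 bases before the start, plus strand, chr11:98908002-98908031: gccggtggagaGCGGGAAAtcgcctggggt

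The first *Dnmt1* stretch lies within an annotated exon of *Dnmt1* on mm9, while the second *Dnmt1* stretch and the *Uhrf1* stretch overlap no annotated exon. A match is a description of the letters and not of binding, and no binding of E2F was measured here. The windows also differed in CpG content. The *Tet2* window held 57 CpG, more than 99.8% of all windows, whose median was 7. *Dnmt3a* held 46 and 47 at its first 2 starts and 18 at the third, and *Dnmt1* held 2, 12 and 33 at its 3 starts. The other windows held 12 and 33 for *Uhrf1*, 30 for *Dnmt3b*, 22 for *Tet3* and 17 for *Tet1*.

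Levels were compared between genes per length, as normalized CPM per kb of the union of annotated exons. *Mbd2*, a reader that brings the NuRD complex to methylated DNA, had the highest level with 23.4 CPM per kb (mean of 4 libraries) and a range from 21.8 to 26.4. *Dnmt3a* with 16.3, *Dnmt1* with 15.3 and *Mbd1* with 13.4 followed, and neighbours among these 3 overlapped over the libraries. With the longest annotated transcript as the length (an alternative chosen after seeing the data), *Mbd2* came to 38.6 and *Dnmt3a* to 28.1, and the ranges of *Dnmt3a* and *Dnmt1* no longer overlapped, with *Dnmt3a* at 1.63 to 2.00 times *Dnmt1* within the libraries. *Tet3* lay lower at 8.08, *Tet2* at 2.69 and *Uhrf1* at 1.38, each with a range that did not touch those of its neighbours. *Dnmt3b* at 0.481 and *Tet1* at 0.441 were lowest, and their ranges overlapped. The maintenance, de novo and Tet genes thus each included an abundant and a scarce transcript.

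**Figure D1:**
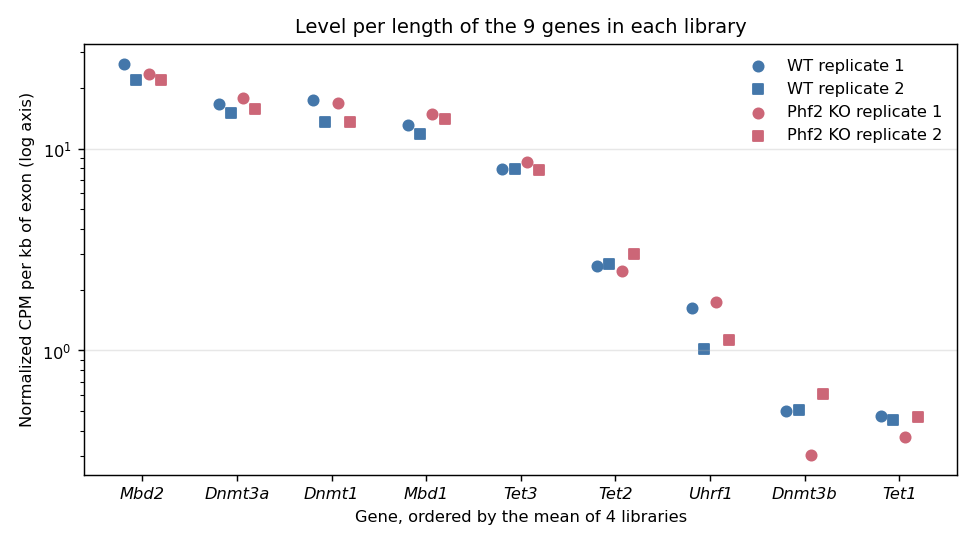
Normalized CPM per kb of exon (log axis) of the 9 genes, ordered along the horizontal axis by their mean, with 1 point for each library (circles, replicate 1; squares, replicate 2; blue, WT; red, *Phf2* KO). *Mbd2* lies highest at 21.8 to 26.4 and *Tet1* lowest at 0.371 to 0.474, and the colours are mixed in 8 genes, all but *Mbd1*.

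Within the Tet family *Tet3* made up between 69.4% and 75.2% of the summed level per length over the 4 libraries, *Tet2* between 21.6% and 26.5%, and *Tet1* between 3.24% and 4.30%. Among the methyltransferases *Dnmt1* took between 45.2% and 50.6%, *Dnmt3a* between 48.0% and 52.7%, and *Dnmt3b* between 0.865% and 2.04%, the extremes being *Phf2* KO replicates 1 and 2. This split rests on the length used, since by the longest transcript *Dnmt3a* took between 61.2% and 65.5% and *Dnmt1* between 32.7% and 37.5%, while *Tet3* took between 69.7% and 75.4% of its family. The level of *Dnmt3a* per length was between 25.9 and 59.1 times that of *Dnmt3b*, its partner in de novo methylation (37.6 to 86.0 by the longest transcript). The level of *Dnmt1* per length was between 9.61 and 13.4 times that of *Uhrf1*, its partner in maintenance (8.10 to 11.3 by the longest transcript). For *Uhrf1* 76.9% of the 50-base windows occurred once in the genome, against 100% for *Dnmt1*, and the effect on this ratio was not tested. *Mbd2* exceeded *Mbd1* per length 2.02-fold and 1.85-fold in WT and 1.59-fold and 1.56-fold in *Phf2* KO, and between 2.52-fold and 3.25-fold by the longest transcript.

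None of the 9 genes was called as changed in *Phf2* KO MEFs. In edgeR's quasi-likelihood test, adjusted by Benjamini-Hochberg over 13668 genes, the adjusted p was 0.999 for each of the 9, and 0 of them had an unadjusted p under 0.05. The same edgeR test did not call the deleted gene *Phf2* either (adjusted p = 0.999). DESeq2 and limma-voom also called 0 of the 9. At this threshold of 0.1 the test called 1 gene of the whole table (0.00732%), *Dkk2*, an extracellular regulator of Wnt signalling, which was lower in *Phf2* KO. At an unadjusted p under 0.05 there were 211 genes higher and 365 lower. Of the 9 genes, 5 had a higher mean in *Phf2* KO and 4 a lower one. Their median log2 fold change was 0.05, against 0.01 over all genes, and their median absolute log2 fold change was 0.09, against 0.12 over all genes.

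*Dnmt1*, the maintenance methyltransferase, had 91.9 and 71.4 CPM in WT (replicate 1 first, as in all such pairs of values), against 88.3 and 71.3 CPM in *Phf2* KO. Its groups overlapped, and in both groups replicate 1 was the higher library. The fitted log2 fold change was -0.03 ± 0.17 (SE, n = 2 per group), and its 95% interval ran from 0.711-fold to 1.34-fold of WT. Within the replicate numbers, *Phf2* KO differed from WT by -0.06 ± 0.05 log2 units in replicate 1 and by -0.00 ± 0.05 in replicate 2, where the error covers counting only.

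*Uhrf1*, which recognises half-methylated DNA and recruits Dnmt1, was much scarcer, with 167 and 112 counts in WT, against 154 and 116 in *Phf2* KO. These were 6.93 and 4.32 CPM in WT, against 7.43 and 4.83 CPM in *Phf2* KO, again with replicate 1 above replicate 2 in both groups. The log2 fold change of 0.12 ± 0.34 had an interval from 0.580-fold to 2.05-fold, the highest upper bound of the 9. Within the numbers the log2 differences were 0.10 ± 0.16 and 0.16 ± 0.19.

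*Dnmt3a*, the de novo methyltransferase of somatic cells, had the highest counts of the 9 genes, with 6647 and 6530 in WT, against 6167 and 6320 in *Phf2* KO. The normalized values were 276 and 252 CPM in WT, against 298 and 263 CPM in *Phf2* KO, so the groups overlapped although each *Phf2* KO library exceeded the WT library of its number. The log2 fold change was 0.09 ± 0.11, with an interval from 0.870-fold to 1.30-fold. The log2 differences within the numbers were 0.11 ± 0.03 and 0.06 ± 0.03 by counting error.

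*Dnmt3b*, which is best known from early embryonic and pluripotent cells, had 62 and 67 counts in WT, against 32 and 75 in *Phf2* KO. The value of 1.54 CPM in *Phf2* KO replicate 1 was the lowest and that of 3.12 CPM in *Phf2* KO replicate 2 the highest of the 4 libraries, with WT at 2.57 and 2.58 between them. The groups therefore overlapped, and the log2 difference was -0.74 ± 0.31 in replicate 1 and 0.27 ± 0.24 in replicate 2. The fitted log2 fold change of -0.14 ± 0.39 had the widest interval of the 9, from 0.442-fold to 1.87-fold.

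*Tet1*, the dioxygenase most studied in pluripotent cells, had 6.97 and 6.67 CPM in WT, against 5.45 and 6.86 CPM in *Phf2* KO. Only *Phf2* KO replicate 1 lay apart, below the other 3 libraries. In the fit *Tet1* had a log2 fold change of -0.15 ± 0.19, with differences of -0.35 ± 0.18 in replicate 1 and 0.04 ± 0.16 in replicate 2.

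*Tet2*, which lacks the CXXC domain of the other long Tet enzymes, had 24.2 and 24.5 CPM in WT, against 22.7 and 27.7 CPM in *Phf2* KO. The *Phf2* KO libraries lay on either side of the closely spaced WT libraries. *Tet2* had a log2 fold change of 0.05 ± 0.13, with -0.09 ± 0.09 in replicate 1 and 0.17 ± 0.08 in replicate 2.

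*Tet3*, the main Tet transcript of these MEFs per length, had 87.9 and 87.8 CPM in WT, against 95.3 and 87.4 CPM in *Phf2* KO. It varied least of the 9 in the fit, with a log2 fold change of 0.06 ± 0.08 and an interval from 0.894-fold to 1.21-fold. The log2 differences were 0.12 ± 0.05 in replicate 1 and -0.01 ± 0.04 in replicate 2.

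*Mbd1*, a methyl-CpG binding repressor, had 38.0 and 34.1 CPM in WT, against 42.9 and 40.5 CPM in *Phf2* KO. It was the only 1 of the 9 genes whose groups did not overlap, with both *Phf2* KO libraries above both WT libraries. Groups did not overlap for 33.5% of all genes tested, so 1 of 9 was below that background. The log2 fold change of 0.21 ± 0.10 was the largest in size of the 9, with an interval from 0.954-fold to 1.40-fold and an unadjusted p of 0.107 in edgeR's quasi-likelihood test. The log2 differences were 0.17 ± 0.07 in replicate 1 and 0.25 ± 0.07 in replicate 2.

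*Mbd2* had 85.0 and 70.1 CPM in WT, against 75.8 and 70.3 CPM in *Phf2* KO. WT replicate 1 was the highest library, and the other 3 lay within 70.1 to 75.8 CPM. The log2 fold change was -0.09 ± 0.12, with -0.16 ± 0.05 in replicate 1 and 0.00 ± 0.05 in replicate 2.

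**Figure D2:**
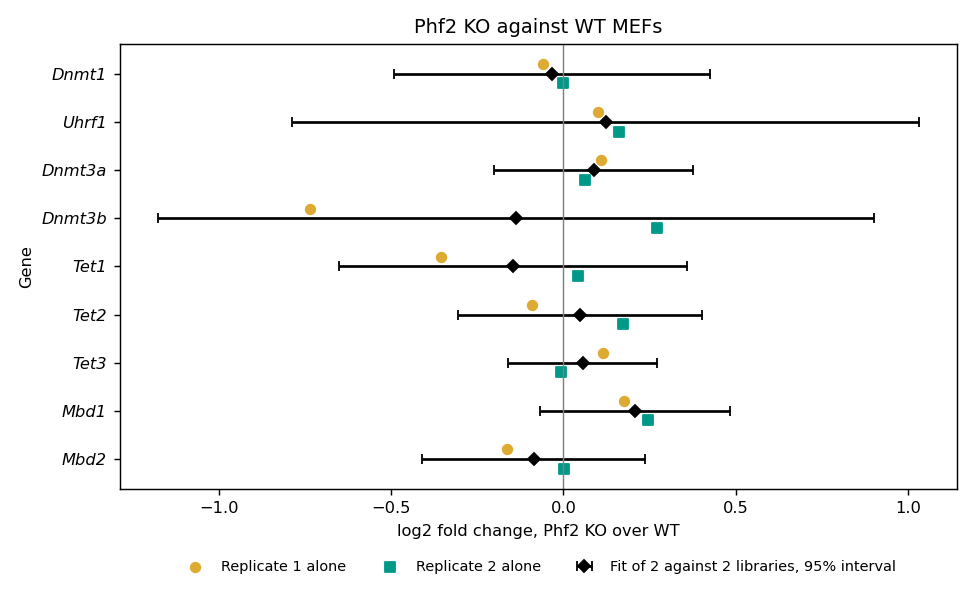
Log2 fold change of *Phf2* KO over WT for the 9 genes (diamonds, edgeR's fit of 2 against 2 libraries with its 95% interval; circles and squares, the ratio within replicate 1 and replicate 2). All 9 intervals hold 0, and the widest are those of *Dnmt3b* and *Uhrf1*.

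Compared within the replicate numbers, *Uhrf1*, *Dnmt3a* and *Mbd1* were higher in *Phf2* KO in both numbers. *Dnmt1* had a negative value in both, but that in replicate 2 was -0.00 ± 0.05 log2 units by counting error. The other 5 genes, namely *Dnmt3b*, *Mbd2* and the 3 Tet genes, had opposite signs in the 2 numbers. For *Dnmt3b*, *Tet1* and *Tet2* the value was negative in replicate 1 and positive in replicate 2, whereas for *Tet3* it was positive in replicate 1. *Mbd2* was negative in replicate 1 and at 0.00 in replicate 2. Whether a gene's difference between the groups itself differed between the numbers was not tested, because a fit with that term leaves no residual degrees of freedom.

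The genes whose pattern over the 4 libraries was nearest to that of *Mbd1*, by the Euclidean distance of centred log2 CPM, were *Eif4a1* (0.0133), *Shfm1* (0.0273), *Armcx3* (0.0299), *2010012O05Rik* (0.0300) and *Ten1* (0.0388). *Eif4a1*, the RNA helicase of translation initiation, had 159 and 143 CPM in WT, against 178 and 169 CPM in *Phf2* KO. With 4 libraries, such likeness describes only the order and spacing of 4 values.

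The 9 genes were also compared between the libraries of 1 genotype. With genotype in the fit, edgeR's quasi-likelihood test called *Dnmt1*, *Uhrf1* and *Mbd2* as different between replicate 2 and replicate 1, and all 3 were lower in replicate 2. The test called 26.2% of all genes, and 13.6% as lower in replicate 2, and whether 3 of 9 exceeds such a share was not tested. In DESeq2 with the same terms 1 of the 9, *Dnmt1*, was called, and its share over all genes was not counted. This fit has 1 residual degree of freedom and shares its spread across genes. Sex, macrophage RNA and any other difference between the numbers cannot be told apart here.

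*Uhrf1* fell by 0.65 ± 0.17 log2 units (SE) in replicate 2, with an adjusted p of 0.00163 in edgeR's quasi-likelihood test, but of 0.279 in DESeq2. The difference was -0.68 in WT and -0.62 in *Phf2* KO. *Dnmt1* fell by 0.34 ± 0.08 with an adjusted p of 0.000529 in the same edgeR test, and by group the difference was -0.36 in WT and -0.31 in *Phf2* KO. For both maintenance genes the decrease was thus of similar size in the 2 groups. *Mbd2* fell by 0.19 with an adjusted p of 0.0824 in edgeR's test and of 0.489 in DESeq2, and by group the difference was -0.28 in WT and -0.11 in *Phf2* KO.

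For the other 6 genes edgeR gave adjusted p-values between 0.182 and 0.692. *Dnmt3a*, *Tet3* and *Mbd1* had differences of -0.16, -0.06 and -0.12 log2 units between replicate 2 and replicate 1, negative in both groups. *Dnmt3b* had 0.46 and *Tet2* 0.15, positive in both groups, although for *Dnmt3b* the value in WT was 0.00 and that in *Phf2* KO 1.01. *Tet1* had 0.12, with opposite signs in the groups.

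Genes of S phase and mitosis were compared between the replicate numbers in the same way. All 20 of them had a lower value in replicate 2 in the fit, and 14 passed edgeR's test as lower, with a median log2 difference of -0.44. By group, 19 of 20 were lower in replicate 2 in WT with a median of -0.71, and 14 of 20 in *Phf2* KO with a median of -0.17, where 6 were higher. Their summed level was 466 and 332 CPM in WT, against 375 and 328 CPM in *Phf2* KO, so both libraries of replicate 2 lay below both of replicate 1. *Pcna*, the sliding clamp of the replication fork that binds Dnmt1, fell by 0.58 with an adjusted p of 2.79e-09 in edgeR's test, but 2 pseudogenes carry its name and 69.0% of its 50-base exon windows occurred once in the genome. *Mki67*, the proliferation antigen Ki-67, had 1070 and 432 counts in WT, against 585 and 465 in *Phf2* KO. All 18 macrophage markers kept by the filter were also lower in replicate 2, with a median log2 difference of -2.04, and the part of either group of genes in the result was not tested.

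**Figure D3:**
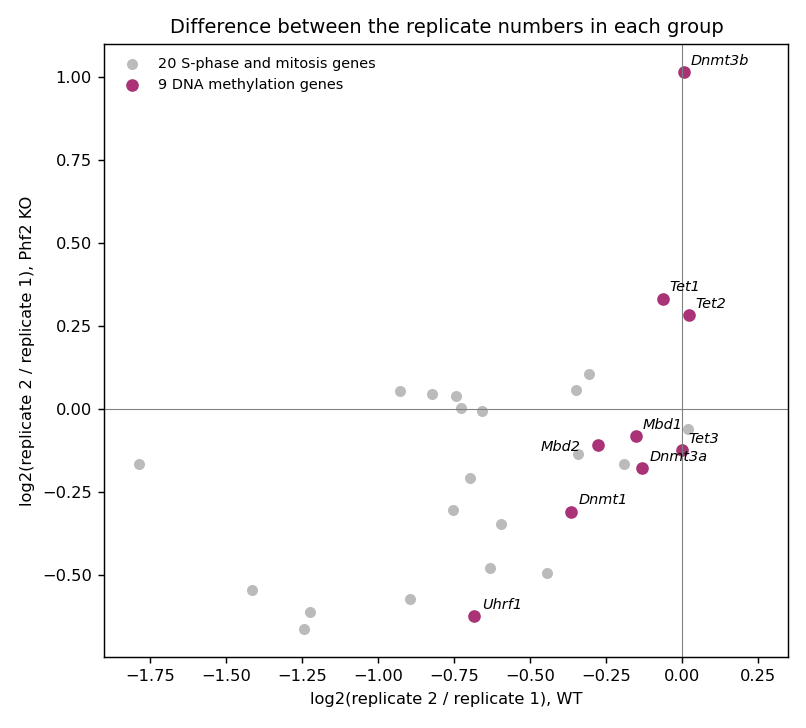
Log2 ratio of replicate 2 to replicate 1 in WT (horizontal axis) and in *Phf2* KO (vertical axis) for the 9 genes (purple, named) and 20 S-phase and mitosis genes (grey). *Uhrf1* (-0.68 and -0.62) and *Dnmt1* (-0.36 and -0.31) lie in the lower left. The grey points have medians of -0.71 in WT and -0.17 in *Phf2* KO, where 6 of the 20 lie above 0. *Dnmt3b* lies at the top with 0.00 in WT and 1.01 in *Phf2* KO.

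Between the genotypes the S-phase and mitosis genes showed no called change, with 14 lower and 6 higher, a median of -0.07, and 0 called by edgeR's test, in which 1 had an unadjusted p under 0.05. DESeq2 and limma-voom also called 0 of the 20. With the replicate number in the fit, edgeR called 3 of the 20 (*Mcm2*, *Mcm6* and *Rrm1*, all lower in *Phf2* KO), limma-voom called these and *Mki67*, and DESeq2 called 0. Across all 13668 genes the same fits called 789 higher and 711 lower in edgeR, and 725 and 646 in limma-voom. *Mcm6*, a subunit of the replicative helicase, had the largest change with -0.38 ± 0.29, followed by *Mki67* with -0.36 ± 0.50.

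The wider DNA methylation machinery was described with 7 lists holding 91 genes, of which 70 passed the filter. EdgeR's quasi-likelihood test called 0 of these 70 at an adjusted p under 0.1, and 3 had an unadjusted p under 0.05, all lower in *Phf2* KO, among them *Gadd45b* and *Gatad2b*. DESeq2 called 1, *Gadd45b*, and limma-voom called 0. The median log2 fold change over the 70 was 0.00.

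Of 8 kept partners of maintenance methylation, 4 were higher and 4 lower in *Phf2* KO, with a median log2 fold change of 0.01. *Cdca7*, the partner of the remodeller Hells, had 68 and 57 counts in WT, against 39 and 22 in *Phf2* KO, a log2 fold change of -0.85 ± 0.42 with an unadjusted p of 0.107 in edgeR's test. *Hells*, which opens nucleosomal DNA to methylation, had 0.20 ± 0.25. Of 9 kept partners of de novo methylation, 6 were higher and 3 lower with a median of 0.02. *Zfp57*, a zinc-finger protein that keeps imprints methylated, had 436 and 699 counts in WT, against 465 and 877 in *Phf2* KO (0.39 ± 0.31), and *Ehmt1*, a histone H3 lysine methyltransferase, had 0.14 ± 0.08.

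The 10 other readers of DNA methylation were split into 5 higher and 5 lower, with a median of 0.01. The largest changes among the readers were those of *Mbd4*, a thymine glycosylase with a methyl-CpG binding domain, with -0.43 ± 0.29, and of *Mbd6* with 0.24 ± 0.18. Of 13 subunits and partners of reader complexes, 4 were higher and 9 lower with a median of -0.09. *Cdk2ap1* had 0.31 ± 0.22 and *Gatad2b*, the NuRD subunit that links Mbd2 to the rest of the complex, -0.28 ± 0.10.

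Of 15 kept genes around demethylation, 8 were higher and 7 lower, with a median of 0.02. *Gadd45b*, a stress-induced gene that has been linked to active demethylation, had 916 and 971 counts in WT, against 463 and 614 in *Phf2* KO. Both *Phf2* KO libraries lay well below both WT libraries, and the log2 fold change was -0.65 ± 0.11 with an unadjusted p of 0.00270 and an adjusted p of 0.999 in edgeR's quasi-likelihood test. *Ung*, the uracil glycosylase, had -0.50 ± 0.23 from 68 and 75 counts in WT, against 44 and 46 in *Phf2* KO. Of 13 genes of the methyl donor cycle, 8 were higher and 5 lower with a median of 0.02.

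**Figure D4:**
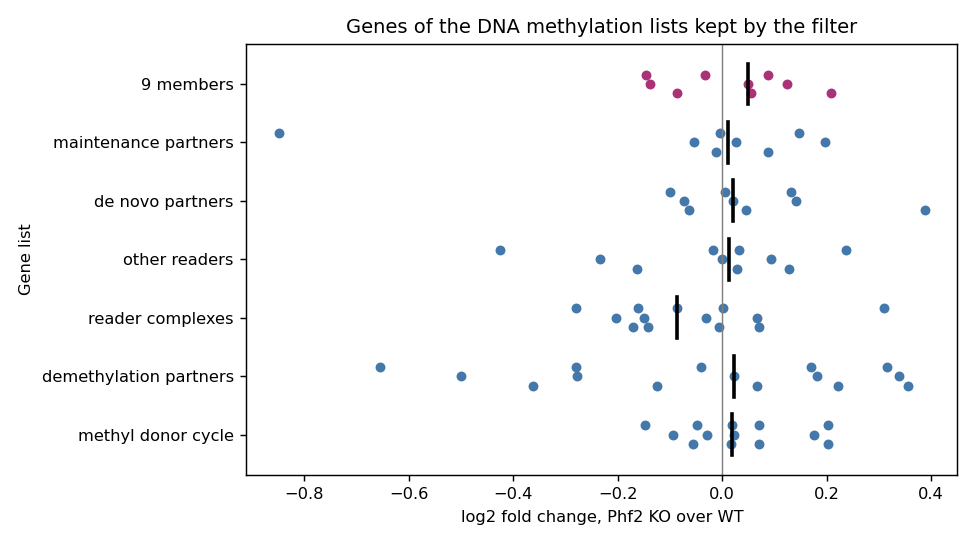
Log2 fold change of *Phf2* KO over WT for the 9 genes (purple) and for the kept genes of 6 lists of the DNA methylation machinery (blue), with each median as a vertical bar. Medians lie between -0.09 and 0.05, and the lowest points are *Cdca7* (-0.85) and *Gadd45b* (-0.65).

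Germline genes that are known to be silenced by promoter methylation in somatic cells stayed near the detection limit in both groups. Of 20 such genes, 5 had 0 counts in every library and 2 passed the filter, *Piwil2* with a log2 fold change of -0.43 ± 0.39 and *Brdt* with -0.12 ± 0.28. The 20 genes together had 95 and 81 counts in WT, against 68 and 74 in *Phf2* KO, which corresponds to 3.94 and 3.12 CPM in WT, against 3.28 and 3.08 CPM in *Phf2* KO. Most of these genes were too scarce to be read one by one, and the highest count of any of them in any library was 52. DNA methylation itself was not measured in these samples.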

How the data were processed

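RNA-seq counts of 2 WT and 2 *Phf2* KO MEF libraries were analysed. The authors sequenced single reads of 50 bases, trimmed them with Trim Galore, removed ribosomal reads with Bowtie2, and mapped the rest to mm9 (MGSCv37) with STAR as reverse-stranded reads, which featureCounts assigned to genes. The deposited counts are whole and not normalized. Tool versions and the annotation release are not given in the sources used here. The authors' deposited DESeq2 table holds a mean signal, log2 fold changes with errors, a test score and p-values, and was not used. The number of sample columns left out was 0.

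Counts were filtered with filterByExpr, scaled by TMM and tested in R 4.3.3 with edgeR 4.0.16 (glmQLFit and glmQLFTest, genotype alone), adjusting by Benjamini-Hochberg over 13668 genes, with 0.1 as the threshold. Normalized CPM used the TMM factors. Replicate numbers were compared in a fit with genotype. Intervals are 95% intervals of the fit. Errors within a replicate number cover counting error only. DESeq2 1.42.0, limma 3.58.1 (voom), other scalings, filters and thresholds, a replicate block and leaving out each library were alternatives. The fits were tested on simulated data. Figures and sequence searches used Python 3.11.15.

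The 9 genes, the lists and the tests were chosen with earlier results of these data known. Named besides the 9 genes and *Phf2* are, for each list, called genes and the 2 kept genes with the largest absolute log2 fold change, the 5 genes nearest to *Mbd1* (the member of largest absolute log2 fold change with a mean of at least 50 counts), sex genes and cell type markers. *Pcna*, *Mcm2*, *Rrm1*, *Gadd45a*, *Gadd45g*, *Tdg*, *Dkk2* and the S-phase genes with a motif match were named after their values were seen. Some genes of the lists that fall under the rule are not reported here.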

Additional observations from a re-analysis of the deposited data

How the results depend on the processing

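With all libraries, the log2 fold changes of the 9 genes between *Phf2* KO and WT kept their sign under each alternative test, scaling, filter and threshold and under the replicate block, and lay between -0.21 and 0.22. With library size alone or DESeq2's size factors, 5 were higher and 4 lower as with TMM, and the median of all genes lay between -0.01 and 0.01. Of 144 member values under 16 alternatives, 0 were called. The thresholds of 0.05 and 0.01 reuse the main fit, so their values repeat it and could add no call. Limma-voom without the block called 0 genes of the whole table, and each other scaling or filter in edgeR called 1. These fits therefore left little room for a call among the 9. DESeq2 with the block gave no adjusted p for *Uhrf1*, *Dnmt3b* and *Tet1*, so these could not be called there. Leaving out 1 library turned the sign of 8 genes, all but *Mbd1* (0.12 to 0.30). The ranges were -0.22 to 0.17 for *Dnmt1*, -0.22 to 0.52 for *Uhrf1*, -0.01 to 0.17 for *Dnmt3a*, -0.74 to 0.27 for *Dnmt3b*, -0.32 to 0.01 for *Tet1*, -0.10 to 0.18 for *Tet2*, -0.01 to 0.12 for *Tet3* and -0.23 to 0.07 for *Mbd2*. *Dnmt1* was 0.17 without WT replicate 1 and 0.11 without *Phf2* KO replicate 2, *Uhrf1* was -0.22 without *Phf2* KO replicate 1 and -0.19 without WT replicate 2, and without *Phf2* KO replicate 1 *Dnmt3b* was 0.27, *Dnmt3a* -0.0055, *Tet1* 0.0086 and *Tet3* -0.0081. *Mbd2* was 0.070 without WT replicate 1, and *Tet2* was -0.10 without *Phf2* KO replicate 2. With 1 library left in a group, it is assumed to vary like the others.

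The labels give the libraries the same replicate numbers but state no pairing. *Xist*, *Ddx3y* and the macrophage sum differed between the numbers in the same direction in both groups. The replicate difference in WT correlated with that in *Phf2* KO (r = 0.854 across 11556 genes). With 2 pairs, such likeness is only a hint of a pairing. With the replicate block, edgeR called 0 of the 9 genes, and *Mbd1* had 0.21 with an unadjusted p of 0.0232 and an adjusted p of 0.162. Of 13668 genes kept for edgeR and limma-voom, the block in edgeR gave 789 higher and 711 lower, against 0 and 1 without it. The block gave 725 and 646 in limma-voom on the same genes, and 175 and 122 in DESeq2 with its own filter. Without the block, DESeq2 gave 10 and 54, edgeR's likelihood ratio test 3 and 38, and 0 were lower in limma-voom, at thresholds of 0.05 and 0.01, and without any 1 library. Of the 70 genes of the lists, 11 were called with the block in edgeR, 10 in limma-voom and 2 in DESeq2 (*Gadd45a* and *Gadd45b*), and 1 in DESeq2 without it. EdgeR's common dispersion, its shared measure of spread between libraries, was 0.0451 without the block and 0.00363 with it. The cause of these differences was not tested.

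Between replicate numbers, DESeq2 called 1 of the 9 genes, *Dnmt1*, while *Uhrf1* had -0.66 (adjusted p = 0.279) and *Mbd2* -0.20 (adjusted p = 0.489), and at a threshold of 0.05 *Mbd2* (-0.19) was not called. By CPM without length, 7 genes changed place in the order of levels, with *Dnmt3a* first. With the longest annotated transcript, chosen after seeing the data, the order was identical, but *Mbd2* moved from 23.4 to 38.6 and *Dnmt3a* from 16.3 to 28.1 CPM per kb. Depth limits *Dnmt3b*, the only 1 of the 9 with under 100 counts in every library.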

Other observations

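The 3 *Gadd45* genes, stress-induced partners of DNA repair, had fold changes of both signs in *Phf2* KO MEFs, which was noticed after their values were seen. *Gadd45b* had 916 and 971 counts in WT and 463 and 614 in *Phf2* KO, whereas *Gadd45a* had 2104 and 1869 against 2263 and 2274, and *Gadd45g* had 1562 and 2319 against 1688 and 2653. The log2 fold changes were -0.77 and -0.55 within replicates 1 and 2 for *Gadd45b*, 0.32 and 0.39 for *Gadd45a*, and 0.33 and 0.30 for *Gadd45g*. With genotype alone, edgeR's quasi-likelihood test called none of the 3 at an adjusted p under 0.1, and the fitted values were -0.65 ± 0.11, 0.36 ± 0.13 and 0.32 ± 0.22 (SE, 2 against 2 libraries). With the replicate number in the fit, edgeR called all 3, with adjusted p-values of 4.38e-09 for *Gadd45b*, 0.000635 for *Gadd45a* and 0.00391 for *Gadd45g*. That fit has 1 residual degree of freedom and called 789 genes higher and 711 lower of all 13668. With the same terms DESeq2 called *Gadd45b* (adjusted p = 0.00429) and *Gadd45a* (adjusted p = 0.0494) but not *Gadd45g*. DESeq2 with genotype alone called *Gadd45b* (adjusted p = 0.0311).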
